A study of Sus scrofa with 24 samples.

Results

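Nrf2, HO-1 and NQO1 are the 3 antioxidant response genes among the 26 target genes whose mRNA was measured by quantitative RT-PCR in the small intestine of pigs, and they were chosen by name. Nrf2 (gene symbol NFE2L2) is a transcription factor that the adaptor protein Keap1 marks for degradation; oxidants and electrophiles disturb Keap1, and Nrf2 then enters the nucleus and binds antioxidant response elements beside its target genes. HO-1 (HMOX1) and NQO1 are well known targets of this kind: HO-1 breaks heme down to biliverdin, carbon monoxide and iron, and NQO1 reduces quinones to hydroquinones. Nrf2 is controlled largely as a protein, which was not measured here, so its mRNA level is not its activity.

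The samples were scraped jejunal and ileal mucosa of 6 pigs with postnatal growth retardation (PGR), which were chosen for low body weight, and of 6 healthy pigs (Control). All were crossbred Duroc, Landrace and Large Yorkshire pigs at 42 d of age, and each of the 12 pigs gave both tissues, which makes 24 samples in 4 groups of 6. PGR and healthy pigs were matched in pairs from the same litter, but the labels do not say which pigs form a pair, so the growth groups were compared as unpaired. For 12 samples the title and the tissue field of the labels name different tissues, and samples were placed by title. Genes that define jejunum or ileum were not measured. CCK and GHRL (ghrelin), hormones of endocrine cells that become fewer toward the distal small intestine, had the lower Ct in the sample titled jejunal in 12 of 12 pigs, also relative to the mean Ct of all targets. In scraped mucosa, fewer cells of a type and less RNA per cell cannot be told apart.

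A Ct counts the PCR cycles until the product crosses a threshold, so a lower Ct stands for more template, and 1 cycle is 1 unit on a log2 scale. The level given below is the deposited ratio to the reference gene β-actin, multiplied by 1000. A comparison of pigs on Ct without a reference gene is not corrected for differences in the RNA put in. The authors left 7 of the 72 levels of the 3 genes blank, 4 of jejunal and 3 of ileal samples, but kept the Ct of these samples. Blank levels were left out of the group means and were also recomputed from the Ct and the β-actin reading that the genes share. Of the 7 recomputed levels, 6 lay outside the kept values of their group.

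In the jejunal mucosa the question was whether PGR pigs differ from healthy pigs in these genes. Nrf2 and HO-1 were lower in PGR pigs at an unadjusted exact p under 0.05, and NQO1 did not pass. The level of Nrf2 was 1.38 at the lowest, 3.72 at the median and 5.45 at the highest in healthy pigs, against 0.115, 0.574 and 3.35 in PGR pigs. PGR pigs 1 and 2 lay within the healthy range, and PGR pigs 3, 4, 5 and 6 lay below every healthy pig. The highest PGR pig had 29.1 times the level of the lowest, against 3.94 times in healthy pigs. With the healthy mean set to 1, the mean level of PGR pigs was 0.337 ± 0.372 (SD, n = 6), against 1 ± 0.413 (SD, n = 6) for the healthy group, with p = 0.0195 by a two-sided exact permutation test and an adjusted p of 0.0728 over 52 comparisons (26 genes in 2 tissues). The Ct without any reference went the same way, from 22.0 ± 0.494 in healthy to 23.9 ± 1.69 in PGR pigs (SD, n = 6 each). With the mean Ct of all targets as reference the level of PGR pigs was 0.451 (exact permutation p = 0.0498), and without TLR4 in that mean it was 0.457 (p = 0.0519). The size depends on the scale and on PGR pig 1: as a ratio of geometric means it was 0.196 (exact permutation p = 0.0216), and without PGR pig 1 it was 0.223 (exact permutation p = 0.0108).

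HO-1, the heme-degrading enzyme, had kept levels of 9.04, 17.4 and 79.8 (lowest, median and highest of 5) in healthy jejunal mucosa and of 1.95, 9.55 and 14.6 in PGR jejunal mucosa. Healthy pigs 2 and 6, at 79.8 and 73.1, stood above the other healthy pigs, and 2 of the 5 PGR pigs lay below every healthy pig. The mean level of PGR pigs was 0.233 ± 0.117 (SD, n = 5), against 1 ± 0.874 (SD, n = 5) for the healthy group, with p = 0.0317 by exact permutation and an adjusted p of 0.0825. This difference did not hold once the blank values were filled. PGR pig 1, whose level was left blank, had a Ct of 17.9 and a recomputed level of 49.5, which is 3.39 times the highest kept PGR value. With it and the recomputed 9.96 of healthy pig 3, the level of PGR pigs was 0.462 (exact permutation p = 0.206). On Ct alone it was 0.733 (exact permutation p = 0.519). On the kept values, leaving out any 1 of the 5 PGR pigs gave 0.198 to 0.278 with exact permutation p of 0.151 to 0.198.

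NQO1, the quinone reductase, had kept levels of 2.19, 3.73 and 5.46 (lowest, median and highest of 4) in healthy jejunal mucosa and of 1.37, 2.22 and 3.35 (of 6) in PGR jejunal mucosa. The same healthy pigs 2 and 6 were highest, at 5.25 and 5.46, and the groups overlapped. The mean level of PGR pigs was 0.633 ± 0.198 (SD, n = 6), against 1 ± 0.482 (SD, n = 4) for the healthy group, with p = 0.129 by exact permutation and an adjusted p of 0.181. The blank levels of healthy pigs 4 and 5 came out at 1.72 and 1.84, below every kept healthy value, and with them the level of PGR pigs was 0.768 (exact permutation p = 0.374). On Ct alone the direction turned, to 1.16 (exact permutation p = 0.344), and the mean Ct was 22.3 ± 0.406 in healthy and 22.1 ± 0.445 in PGR pigs (SD, n = 6 each). Without healthy pig 1 it was 0.556 and without healthy pig 3 it was 0.555, each with an exact permutation p of 0.0476 on 3 healthy pigs.

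In all, 2 of the 3 genes passed in the lower direction, while 13 of the 26 target genes (50.0 percent) did so in this tissue. The median level of PGR pigs over the 3 genes was 0.337, against 0.643 over the 26. The β-actin Ct that the 3 genes share was 13.8 ± 0.506 in healthy and 13.3 ± 0.301 in PGR pigs (SD, n = 6 each, exact permutation p = 0.0866). This difference of -0.478 cycles enters the levels of the 14 jejunal genes with this reading. Levels of the other target genes rest on other β-actin readings.

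**Figure D1:**
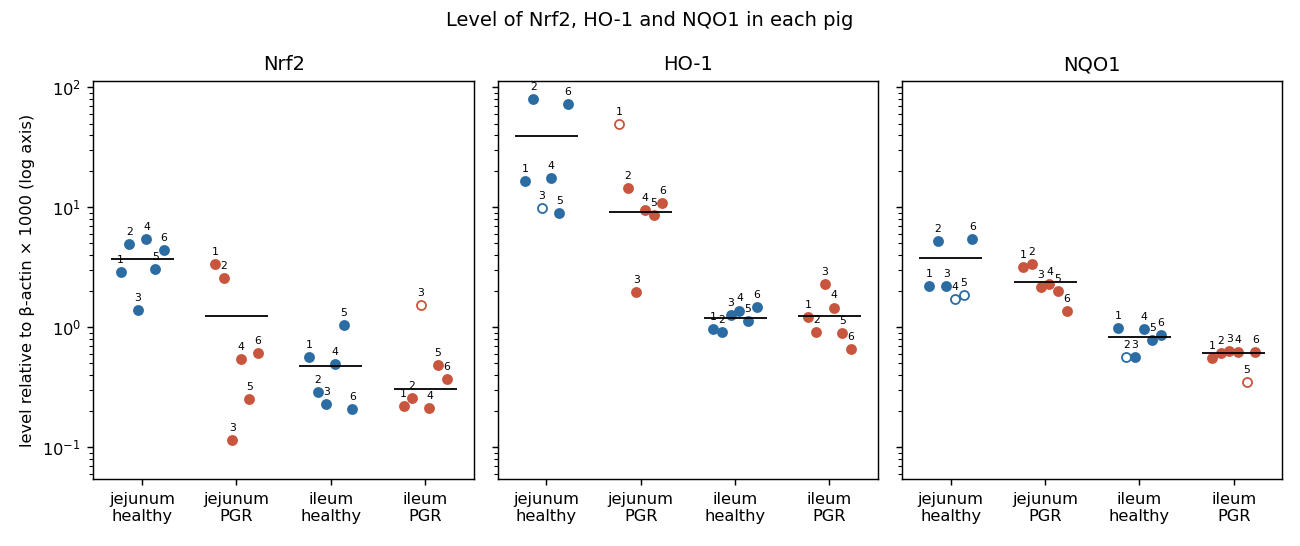
Level of Nrf2, HO-1 and NQO1 relative to β-actin, multiplied by 1000, on a log axis, with 1 point for each pig (number beside it; blue healthy, red PGR) and a line at the mean of the kept values; open points are blank levels recomputed from Ct. The jejunal Nrf2 of PGR pigs runs from 0.115 to 3.35, and the open HO-1 point of PGR pig 1 in the jejunum is at 49.5.

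In the ileal mucosa the levels of the 3 genes in PGR and healthy pigs overlapped. Nrf2 was at 0.207, 0.393 and 1.04 (lowest, median and highest of 6) in healthy pigs and at 0.213, 0.255 and 0.483 (of 5) in PGR pigs. Each kept PGR value lay within the healthy range. The mean level of PGR pigs was 0.654 ± 0.246 (SD, n = 5), against 1 ± 0.670 (SD, n = 6) for the healthy group, with p = 0.338 by exact permutation and an adjusted p of 0.399. The blank value was that of PGR pig 3, whose Ct of 22.2 gave a level of 1.52, which is 3.15 times the highest kept PGR value and above every healthy pig. With it the mean level turned, to 1.08 (exact permutation p = 0.868), and on Ct alone it was 1.53 (exact permutation p = 0.506). As a ratio of geometric means with the blank filled it was 0.967 (exact permutation p = 0.933), and on the Ct of the kept samples it was 0.976.

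Ileal HO-1 was at 0.915, 1.20 and 1.48 (lowest, median and highest of 6) in healthy pigs and at 0.655, 1.06 and 2.29 (of 6) in PGR pigs. PGR pig 3 was above every healthy pig, and 3 PGR pigs were below every healthy pig. The mean level of PGR pigs was 1.04 ± 0.492 (SD, n = 6), against 1 ± 0.189 (SD, n = 6) for the healthy group, with p = 0.905 by exact permutation and an adjusted p of 0.905. Without PGR pig 3 it was 0.860 (exact permutation p = 0.305). With all pigs it was 1.45 on Ct alone (exact permutation p = 0.0844) and 1.31 with the mean Ct of all targets (exact permutation p = 0.0584). The same PGR pig 3 had the highest ileal level of all 3 genes among PGR pigs.

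Ileal NQO1 was at 0.567, 0.866 and 0.979 (lowest, median and highest of 5) in healthy pigs and at 0.554, 0.618 and 0.635 (of 5) in PGR pigs. Healthy pig 3 was among the PGR values, and the other 4 healthy pigs were above all of them. The mean level of PGR pigs was 0.733 ± 0.0382 (SD, n = 5), against 1 ± 0.202 (SD, n = 5) for the healthy group, with p = 0.0397 by exact permutation and an adjusted p of 0.0897. The Ct of NQO1 itself was 23.7 ± 0.413 in healthy and 23.6 ± 0.316 in PGR pigs (SD, n = 6 each), and on Ct alone the level of PGR pigs was 1.04 (exact permutation p = 0.805). The β-actin Ct behind it was 13.3 ± 0.218 in healthy and 12.8 ± 0.247 in PGR pigs (SD, n = 6 each), a difference of -0.534 cycles without overlap of the groups (p = 0.00216 by exact permutation, the lowest value 6 against 6 can give). With the blank values of healthy pig 2 and PGR pig 5 filled it was 0.720 (exact permutation p = 0.0411). Leaving out PGR pig 1, 2, 3, 4 or 6 gave 0.725 to 0.749 with exact permutation p of 0.0556 to 0.0794.

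For the ileal samples 1 of the 3 genes passed in the lower direction, while 13 of the 26 target genes (50.0 percent) did so. The median level of PGR pigs over the 3 genes was 0.733, against 0.747 over the 26. By the exact permutation test 0 of the 26 genes reached an adjusted p under 0.05 in either tissue, while unadjusted p was below it for 13 jejunal genes and for 14 ileal ones, and with blank values filled for 5 and 8. By limma's moderated test on log2 levels 2 jejunal genes and 1 ileal gene reached it, which were not among the 3, and adjusted p of jejunal Nrf2 was 0.0584. Without a reference gene the median level of PGR pigs over the 26 genes was 1.13 in the jejunum and 1.18 in the ileum.

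Whether the change in PGR pigs differs between the tissues was asked on each pig's jejunal minus ileal log2 level. For Nrf2 this difference was 3.08 ± 1.10 (SD, n = 6) in healthy and 1.68 ± 1.98 (SD, n = 5) in PGR pigs, so PGR minus healthy was -1.40 (exact permutation p = 0.167, adjusted p = 0.694 over 25 genes). For HO-1 it was 4.56 ± 1.43 (SD, n = 5) and 2.77 ± 1.76 (SD, n = 5), so PGR minus healthy was -1.80 (exact permutation p = 0.135, adjusted p = 0.675). For NQO1 it was 1.93 ± 0.739 (SD, n = 3) and 1.95 ± 0.560 (SD, n = 5), so PGR minus healthy was 0.02 (exact permutation p = 1, adjusted p = 1). None of the 3 genes passed, and 0 of 25 genes (0 percent) passed in the negative direction, beside 2 in the positive one. With the blank value of PGR pig 3 filled, the difference for Nrf2 was -2.30 (exact permutation p = 0.0866), and on the kept values without PGR pig 5 it was -0.75 (exact permutation p = 0.381). For HO-1 it was -1.10 with blank values filled (exact permutation p = 0.299) and -1.05 on the kept values without PGR pig 3 (exact permutation p = 0.270).

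The 3 genes were also set against each other within a sample, from Ct alone, which leaves β-actin out. Amplicons differ in length and the efficiency of each assay is not given in the sources used here, so the order is that of PCR signal. HO-1 gave the strongest signal in healthy jejunal mucosa, with a mean Ct of 19.2 ± 0.900, followed by Nrf2 at 22.0 ± 0.494 and NQO1 at 22.3 ± 0.406 (SD, n = 6 each). HO-1 was ahead of both other genes in 6 of 6 healthy pigs, whereas Nrf2 and NQO1 changed places from pig to pig, with NQO1 ahead in 3 of 6. By mean Ct, HO-1 was first of the 26 target genes there, Nrf2 was 11th and NQO1 was 13th.

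In PGR jejunal mucosa the order was HO-1 at 19.9 ± 1.27, NQO1 at 22.1 ± 0.445 and Nrf2 at 23.9 ± 1.69 (SD, n = 6 each). HO-1 was ahead of Nrf2 in 6 of 6 PGR pigs and of NQO1 in 5 of 6, and NQO1 was ahead of Nrf2 in 5 of 6. In the ileal mucosa HO-1 was at 23.0 ± 0.351, NQO1 at 23.7 ± 0.413 and Nrf2 at 24.6 ± 0.961 in healthy pigs, and at 22.6 ± 0.528, 23.6 ± 0.316 and 24.1 ± 1.16 in PGR pigs (SD, n = 6 each). HO-1 was ahead of Nrf2 in 6 of 6 pigs of both groups. HO-1 was ahead of NQO1 in 5 of 6 healthy and 6 of 6 PGR pigs. NQO1 was ahead of Nrf2 in 5 of 6 healthy pigs, by 0.95 ± 0.809 cycles, and in 4 of 6 PGR pigs, by 0.53 ± 1.14 (SD, n = 6 each).

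NQO1 relative to Nrf2 was -1.67, -0.15 and 0.66 cycles (lowest, median and highest) in healthy jejunal mucosa, and -0.08, 1.63 and 4.23 in PGR jejunal mucosa. The highest values were those of PGR pigs with little Nrf2, and the groups overlapped. The mean rose by 2.08 cycles (p = 0.0173 by exact permutation, with an adjusted p of 0.104 over 48 comparisons, 24 genes in 2 tissues). Mean Ct went from 22.0 to 23.9 for Nrf2 and from 22.3 to 22.1 for NQO1. The rise thus mostly repeats the lower Nrf2 and is not a separate result. HO-1 relative to Nrf2 went from 2.78 ± 1.08 to 3.98 ± 0.844 cycles (SD, n = 6 each), which did not pass (exact permutation p = 0.0736, adjusted p = 0.158). It passed without healthy pig 2 or 6, at differences of 1.44 and 1.45 cycles (exact permutation p = 0.0325 each), and without PGR pig 2 (exact permutation p = 0.0260). So 1 of these 2 genes passed, while 15 of 24 genes (62.5 percent) passed in the same direction. In the ileal mucosa the differences were 0.00 for HO-1 (exact permutation p = 0.998) and -0.42 for NQO1 (exact permutation p = 0.476), while 3 of 24 genes (12.5 percent) passed as lower and 0 (0 percent) as higher. These comparisons relative to Nrf2 were added after the values had been seen.

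All 3 genes were higher in the jejunal than in the ileal mucosa of every healthy pig with both values kept. Jejunal Nrf2 was 2.91 times the ileal level at the lowest and 21.3 times at the highest, in 6 of 6 healthy pigs. The mean difference was 3.08 ± 1.10 (SD, n = 6) on the log2 scale, or 8.46 times (exact sign-flip permutation p = 0.0312, the smallest that 6 pigs allow, adjusted p = 0.164 over 50 comparisons). Without a reference gene the Nrf2 difference was 2.63 (exact sign-flip permutation p = 0.0312). Jejunal β-actin Ct was higher than ileal by 0.449 ± 0.604 cycles in healthy and 0.505 ± 0.400 in PGR pigs (SD, n = 6 each). This adds to the jejunal minus ileal differences of the 3 genes. HO-1 differed by 4.56 ± 1.43 (SD, n = 5), or 23.7 times, with healthy pig 2 at 87.2 times (exact permutation p = 0.0625, the smallest that 5 pigs allow, adjusted p = 0.164). NQO1 differed by 1.93 ± 0.739 (SD, n = 3), or 3.80 times, and 3 pigs cannot give an exact permutation p under 0.25. So 1 of the 3 genes passed, while 1 of 25 genes (4.00 percent) did so, and 2 of the 25 had the 6 kept pairs that a pass needs. With blank values filled, each of the 3 genes was higher in 6 of 6 healthy pigs (exact permutation p = 0.0312), as were 11 of 24 genes (45.8 percent).

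In PGR pigs the contrast was uneven for Nrf2. With blank values filled, jejunal Nrf2 was 15.1 and 10.2 times the ileal level in PGR pigs 1 and 2, 2.54 and 1.65 times in PGR pigs 4 and 6, 0.521 times in PGR pig 5 and 0.0757 times in PGR pig 3. PGR pigs 3 and 5 thus had more Nrf2 in the ileum than in the jejunum, which was seen in 0 of 6 healthy pigs. On the kept values the mean difference was 1.68 ± 1.98 (SD, n = 5) in log2 units (exact permutation p = 0.188, adjusted p = 0.276). With blank values filled it was 0.78, and with the mean Ct of all targets as reference it turned to -0.46 (exact permutation p = 0.656). HO-1 was higher in the jejunum of 4 of 5 PGR pigs, by 2.77 ± 1.76 (SD, n = 5), or 6.80 times (exact permutation p = 0.125, adjusted p = 0.195), with PGR pig 3 at 0.855 times. NQO1 was higher in 5 of 5 PGR pigs, by 1.95 ± 0.560 (SD, n = 5), or 3.86 times (exact permutation p = 0.0625, adjusted p = 0.164). On the kept values 0 of the 3 genes passed, beside 1 of 25 genes (4.00 percent). Each of the 3 had 5 kept pairs, which cannot give an exact permutation p under 0.0625, so none of them could pass. Only 2 of the 25 genes had the 6 kept pairs that a pass needs. With blank values filled only NQO1 passed among the 3, at 2.04 (exact permutation p = 0.0312), beside 7 of 24 genes (29.2 percent).

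**Figure D2:**
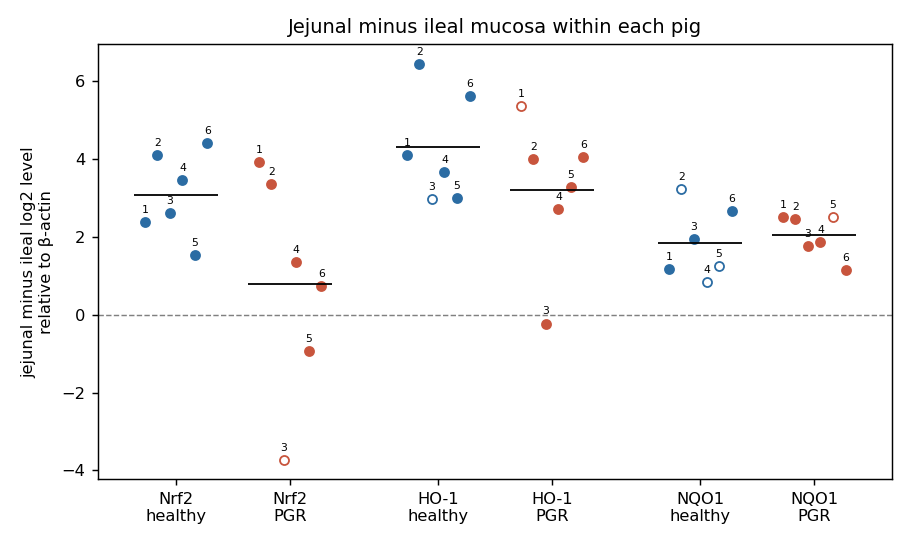
Jejunal minus ileal log2 level relative to β-actin in each pig for Nrf2, HO-1 and NQO1, with 1 point for each pig (number beside it; blue healthy, red PGR), a line at the mean of all 6 pigs and a dashed line at no difference; open points rest on a recomputed level. PGR pig 3 is at -3.72 for Nrf2 and -0.23 for HO-1, while all healthy points are above 0.

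Over all genes the jejunal level was 1.64 times the ileal level at the median in healthy pigs and 1.70 times in PGR pigs (25 genes). With the mean Ct of all targets as reference these medians were 0.689 and 0.726. Relative to that reference Nrf2 and HO-1 were still higher in the jejunum of healthy pigs, by 1.77 and 2.99 in log2 units (exact permutation p = 0.0312 each), and NQO1 by 0.54 (exact permutation p = 0.125). In PGR pigs HO-1 was higher by 1.95 and NQO1 by 0.80 on this reference (exact permutation p = 0.0625 each), where NQO1 no longer passed.

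Whether HO-1 and NQO1 follow Nrf2 across pigs was asked in each tissue on the log2 level, with blank values filled so that each group has 6 pigs. The family holds 18 correlations, and adjusted p covers these. Both genes of a pair share the β-actin reading of the pig, so r on Ct alone is set beside r of the levels. Both genes also share the RNA put in, and r on Ct alone is not corrected for it.

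In PGR jejunal mucosa HO-1 placed the 6 pigs in the same order as Nrf2, from PGR pig 1 at the top to PGR pig 3 at the bottom. Pearson's r was 0.901 (exact permutation p = 0.00139, adjusted p = 0.0125) and Spearman's rho was 1 (exact permutation p = 0.00278, adjusted p = 0.0349). On Ct alone r was 0.876 (exact permutation p = 0.00417) and rho was again 1. Without PGR pigs 1 and 3, the 2 farthest from the median of Nrf2, r was 0.981 over the 4 that were left. The same top pig, PGR pig 1, is the one whose HO-1 level was left blank in the deposited table. By Pearson's r in PGR jejunal mucosa, 6 of 24 target genes passed with Nrf2 relative to β-actin, at an unadjusted permutation p under 0.05. On Ct alone 3 of 25 did, and HO-1 was among them in both settings.

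In healthy jejunal mucosa the relation of HO-1 with Nrf2 did not pass, with r = 0.635 (exact permutation p = 0.200) and rho = 0.657 (exact permutation p = 0.175); without healthy pigs 3 and 4, the 2 farthest from the median of Nrf2, r was 0.944 over 4 pigs. The median r over all 300 pairs of target genes in healthy jejunal mucosa was 0.704 relative to β-actin. On Ct alone r of HO-1 with Nrf2 was -0.136 (exact permutation p = 0.769). Healthy pigs 2 and 6, which had the most HO-1, had Nrf2 levels of 4.96 and 4.40, while healthy pig 4 had the highest Nrf2, at 5.45, with HO-1 at 17.4. Over both groups with the group means taken away, r was 0.771 (12 pigs, permutation p = 0.00128, adjusted p = 0.0125) and rho was 0.829 (permutation p = 0.00388, adjusted p = 0.0349). On Ct alone r was 0.664 (permutation p = 0.0329). Relative to β-actin 9 of 24 genes (37.5 percent) passed with Nrf2 over both groups, and on Ct alone HO-1 was the 1 of 25 (4.00 percent) that did. Without PGR pigs 1 and 3 it was 0.494 (permutation p = 0.0405), so a good part of its size rests on those pigs.

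NQO1 did not follow Nrf2 in the jejunal mucosa at the threshold. Over both groups r was 0.418 (permutation p = 0.111, adjusted p = 0.401) and rho was 0.229 (permutation p = 0.519); on Ct alone r was 0.0446. On the kept values alone r was 0.584 (10 pigs, permutation p = 0.0465), and with blank values filled it was 0.527 without healthy pig 4 and 0.445 without PGR pig 6 (permutation p = 0.0471 and 0.0494). Without PGR pigs 1 and 3 it was 0.438 (permutation p = 0.187). Within the groups r was 0.366 in healthy pigs (exact permutation p = 0.468), where it was 0.958 over the 4 pigs other than 3 and 4, and 0.618 in PGR pigs (exact permutation p = 0.188), where it was 0.650 without pigs 1 and 3. On Ct alone these were -0.722 (exact permutation p = 0.118) and 0.256 (exact permutation p = 0.636). The targets HO-1 and NQO1 gave r = 0.709 with each other (permutation p = 0.0174, adjusted p = 0.104) and rho = 0.571 (permutation p = 0.0782), but r = 0.214 on Ct alone (permutation p = 0.534), 0.857 without PGR pigs 1 and 3 (permutation p = 0.0171) and 0.630 without healthy pig 2 (permutation p = 0.0509). In healthy pigs their r of 0.938 (exact permutation p = 0.0417, adjusted p = 0.188) rests on pigs 2 and 6, since it was -0.114 without them. Over all healthy pigs r was 0.603 on Ct alone (exact permutation p = 0.233) and 0.642 with the mean Ct of all targets (exact permutation p = 0.171). Relative to β-actin 97 of 300 jejunal pairs of target genes passed over both groups, with a median r of 0.417. In healthy pigs 91 of 300 passed, with a median r of 0.704.

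Among ileal samples 0 of the 9 correlations passed at an unadjusted permutation p under 0.05, against 4 of 9 for the jejunum, and the difference between tissues was not tested. The 9 are 3 pairs of genes, each over both groups and within each group, so they are not independent. The 4 jejunal ones were HO-1 with Nrf2 (both groups and PGR) and HO-1 with NQO1 (both groups and healthy). Over all pairs of target genes the shares were 9.66 percent of 828 ileal and 24.9 percent of 900 jejunal correlations. On Ct alone 2 of the 9 jejunal ones still passed, beside 9.54 percent of 975. Both were of HO-1 with Nrf2, over both groups and within PGR pigs, so they share the PGR pigs. HO-1 with Nrf2 gave r = 0.283 (permutation p = 0.441) and rho = -0.286 (permutation p = 0.408) over both groups, and r = 0.405 on Ct alone (permutation p = 0.236). The sign of r came from PGR pig 3, since r without it was -0.421 (permutation p = 0.162). Without PGR pig 3 and healthy pig 5 r was -0.527 (permutation p = 0.116). NQO1 with Nrf2 gave r = 0.185 (permutation p = 0.566) and rho = 0.200 (permutation p = 0.571), 0.375 on Ct alone (permutation p = 0.248), and 0.0730 without the same 2 pigs. Within the ileal groups of 6, leaving out the 2 pigs farthest from the median of Nrf2 moved r of HO-1 with Nrf2 from 0.511 to -0.959 in PGR pigs and r of NQO1 with Nrf2 from 0.437 to 0.967 in healthy pigs.

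**Figure D3:**
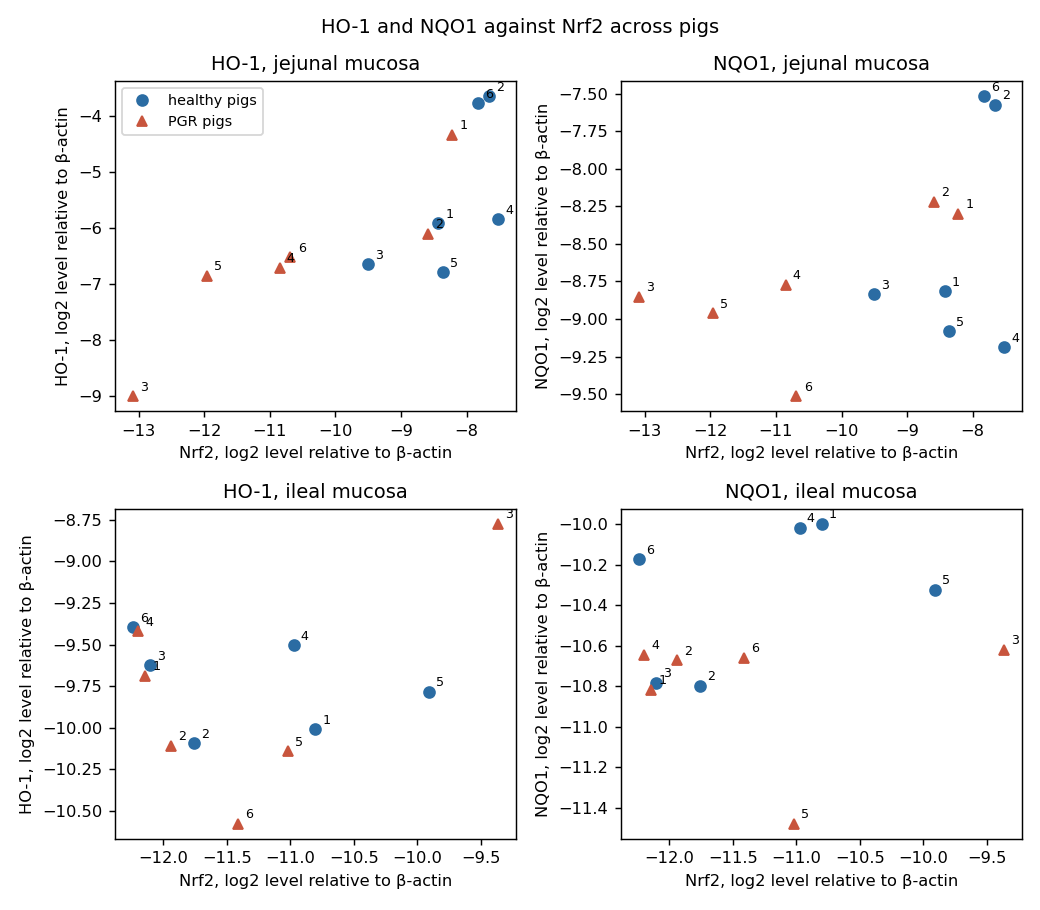
Log2 level of HO-1 (left) and NQO1 (right) against that of Nrf2, all relative to β-actin with blank values filled, in jejunal (top) and ileal mucosa (bottom); each point is a pig, with its number beside it (blue circles healthy, red triangles PGR). In the jejunum the red triangles of HO-1 rise with Nrf2 from PGR pig 3 to PGR pig 1 (rho = 1), and in the ileum PGR pig 3 stands at the upper right for HO-1.

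Other target genes were set beside the 3 genes by Spearman's rho of the log2 level over the 12 pigs of a tissue, as a description. In the jejunal mucosa the genes most like Nrf2 were HO-1 (rho = 0.846), IGF-1 (0.799) and GHR (0.734). Those most like HO-1 were INSR (0.944), P70S6K (0.888) and IGF-1R (0.881), and those most like NQO1 were SS (0.804), INSR (0.769) and P70S6K (0.671). The ileal values were lower: IL-1β (0.620), IL-4 (0.559) and mTOR (0.476) for Nrf2, GHRL (0.657), mTOR (0.594) and IL-10 (0.552) for HO-1, and mTOR (0.650), INSR (0.622) and AgRP (0.538) for NQO1. The identifier given for the IL-4 assay matches the receptor gene IL4R in RefSeq, so it is uncertain which of the 2 that value measures. All these values include the difference between groups. Genes with the same β-actin reading, 14 in the jejunum and 11 in the ileum, also share its differences between pigs. IGF-1 rests on other readings. With the mean Ct of all targets as reference, 9 of these 18 pairs were still among the first 3. HO-1 was again first for Nrf2 in the jejunal mucosa, at 0.566, whereas Nrf2 with IGF-1 came to 0.196, HO-1 with P70S6K to 0.0210 and with IGF-1R to 0.140, and ileal Nrf2 with mTOR to -0.0280.

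Akt, mTOR, 4EBP1 and P70S6K, a kinase pathway that controls protein synthesis, were measured beside the 3 genes. In the jejunal mucosa 1 of these 4 was lower in PGR pigs, beside 13 of 26 target genes (50.0 percent), mTOR at 0.740 ± 0.0922 (SD, n = 5, exact permutation p = 0.0317), and 0 were higher. Ileal values of 3 of the 4 were lower, again beside 13 of 26 (50.0 percent), Akt at 0.837 (exact permutation p = 0.0455), mTOR at 0.742 (exact permutation p = 0.00433) and P70S6K at 0.797 (exact permutation p = 0.0152), and 0 were higher. Their median level was 0.779 in jejunal and 0.817 in ileal mucosa, against 0.643 and 0.747 over the 26 genes. On Ct alone each of these calls turned to above 1: jejunal mTOR was 1.16 (exact permutation p = 0.104), and ileal Akt, mTOR and P70S6K were 1.22, 1.16 and 1.19 (exact permutation p = 0.0844, 0.195 and 0.00216). Jejunal Akt and P70S6K then passed as higher, at 1.48 and 1.21 (exact permutation p = 0.0281 and 0.00649). Ileal 4EBP1 also did, at 1.29 (exact permutation p = 0.00866). Over the 26 target genes 7 jejunal and 5 ileal ones passed on Ct alone, in either direction. The jejunal count includes Nrf2, which was lower, at 0.438 (exact permutation p = 0.0303). On Ct alone the median level of PGR pigs over the 26 genes was itself above 1, at 1.13 in the jejunum and 1.18 in the ileum.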

How the data were processed

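RNA of 24 mucosa samples was measured by quantitative RT-PCR with SYBR Green on a LightCycler instrument, in triplicate. The authors deposited the mean Ct per gene and sample, in cycles without normalization, and a ratio to β-actin (2^-ΔCt) with 77 values blank; the rule for blanks is not given in the sources used here. A deposited table of fold values of the authors' own comparison was not used. A Ct has no sequencing depth, and its precision is that of the wells; errors are SD between pigs.

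The β-actin Ct was recovered as Ct plus log2 of the ratio; within 0.01 cycles it was the same for 14 jejunal and 11 ileal genes, the 3 genes among them. Groups were compared by two-sided exact permutation tests, tissues by exact sign-flip tests with the pig as a block (same pig in both tissues), and correlations by exact permutation or, over 12 pigs, 100000 resamples within groups. Benjamini-Hochberg adjustment covered 52, 50, 25 and 18 comparisons, and 48 for levels relative to Nrf2. TLR4, whose Ct is equal in both tissues for 12 of 12 pigs, was left out of comparisons between tissues, of levels relative to Nrf2 (24 genes in each tissue) and of the ileal lists of correlated genes.

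The genes named are the 3 genes, 4 kinase pathway genes and, for each of the 3, the 3 most correlated genes; CCK and GHRL are named to check the tissue names. Members and lists were chosen with earlier results of these data known. Alternatives were the log2 scale, filled blanks, no reference, the mean Ct of all targets, limma's moderated test on log2 levels, a replicate block, and leaving out each pig. Added after the values were seen were the shares of correlations over all pairs of target genes, CCK and GHRL, filled blanks with the log2 scale, kept values with no reference, the β-actin readings of IGF-1, the mean Ct without TLR4, and levels relative to Nrf2. A planned search of promoter sequence was not run. The permutation test between groups, the sign-flip test and limma were tested on simulated data with complete groups and no blanks. The correlation tests were not tested in this way. Names were looked up in RefSeq for Sscrofa11.1, where 25 of 26 identifiers matched a gene, that of IL-4 the gene IL4R, and no coordinates are given since no build is named for the assays. The tools were limma 3.58.1 in R 4.3.3 and, in Python 3.11.15, pandas 2.3.3, scipy 1.17.1, numpy 2.4.6 and matplotlib 3.10.9.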

Additional observations from a re-analysis of the deposited data

Results flagged for a closer look

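The ileal NQO1 level of PGR pig 1, 0.554, stood apart below the other 4 kept PGR values, which lay between 0.614 and 0.635. It was the only 1 of 24 groups of levels or Ct of the 3 genes with a sample this far from the others, and chance alone gives about 1 in 20. The recomputed level of PGR pig 5, which was left blank, lies lower still, at 0.350.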

How the results depend on the processing

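Jejunal Nrf2 in PGR pigs kept its direction under every alternative run and did not pass under 2 of them, the replicate block and the mean Ct without TLR4. The cause of a change was not tested unless it is named. The groups were matched in pairs by litter and carry the same pig numbers, but the labels do not say that a number marks a litter, and the deviations of same-numbered pigs correlated above 0.1 in 5 of 12 pairs, with the own number best in 3 of 12. With a replicate block on these numbers, on the log2 scale, PGR levels were 0.196 for jejunal Nrf2 (exact p = 0.0625), 0.345 for jejunal HO-1 (exact p = 0.125), 0.967 for ileal HO-1 and 0.736 for ileal NQO1 (exact p = 0.250), so the 3 that passed without it did not pass; 1 jejunal and 2 ileal genes of 26 passed, and 4 pairs cannot give an exact p under 0.125. With pairs of tissues unblocked (no replicate block), the jejunal minus ileal log2 difference passed for HO-1 in healthy (4.54) and PGR pigs (2.75) and for NQO1 in healthy (2.07) and PGR pigs (1.91).

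With blanks filled from Ct, PGR levels were 0.462 for jejunal HO-1 and 1.08 for ileal Nrf2, 5 jejunal and 8 ileal genes passed, and the tissue difference passed for HO-1 (4.30) and NQO1 (1.85) in healthy and NQO1 (2.04) in PGR pigs, since 6 pairs were then complete. Without a reference gene, PGR levels were 0.733 for jejunal HO-1, 1.16 for jejunal NQO1, 1.53 for ileal Nrf2 and 1.04 for ileal NQO1; 7 jejunal and 5 ileal genes passed; the tissue difference passed for HO-1 (3.85) and NQO1 (1.40) in healthy and NQO1 (1.54) in PGR pigs. With the mean Ct of all targets, PGR levels were 0.728 for jejunal HO-1, 1.17 for jejunal NQO1, 1.37 for ileal Nrf2 and 0.989 for ileal NQO1; 8 jejunal and 6 ileal genes passed; the tissue difference was 2.99 for HO-1 in healthy pigs, and -0.463 for Nrf2 and 0.803 for NQO1 in PGR pigs. The log2 scale and limma, without the block, each gave the same 0.196 for jejunal Nrf2 and 0.967 for ileal HO-1, so the scale and not the block moves these 2 values.

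Settings added after the values were seen gave these PGR levels. The mean Ct without TLR4 gave 0.457 for jejunal Nrf2, 0.739 for jejunal HO-1, 1.18 for jejunal NQO1, 1.38 for ileal Nrf2 and 0.991 for ileal NQO1. Kept values without a reference gave 0.413 for jejunal HO-1 and 1.04 for jejunal and for ileal NQO1. Filled blanks on the log2 scale gave 0.450 for jejunal HO-1 and 0.967 for ileal HO-1 and for ileal Nrf2. The β-actin readings of IGF-1 gave 0.515 for jejunal HO-1, 0.742 for ileal HO-1 and 0.525 for ileal NQO1.

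Of the correlations over both groups, jejunal HO-1 with Nrf2 passed under every alternative. On kept values r was 0.584 for jejunal NQO1 with Nrf2, 0.528 for jejunal NQO1 with HO-1, -0.421 for ileal HO-1 with Nrf2 and -0.000269 for ileal NQO1 with HO-1. On Ct alone jejunal NQO1 with HO-1 gave 0.214. With the mean Ct of all targets r was 0.338 for jejunal NQO1 with HO-1, and -0.0809 for HO-1 with Nrf2, -0.0681 for NQO1 with Nrf2 and -0.155 for NQO1 with HO-1 in the ileum. Within single groups r turned on Ct alone to -0.136 (HO-1 with Nrf2) and -0.722 (NQO1 with Nrf2) in healthy jejunum, -0.0339 (NQO1 with HO-1) in PGR jejunum, 0.0208 (HO-1 with Nrf2) in healthy ileum, and 0.201 (NQO1 with Nrf2) and -0.0201 (NQO1 with HO-1) in PGR ileum. With the mean Ct of all targets it turned to -0.00712 (HO-1 with Nrf2) and -0.435 (NQO1 with Nrf2) in healthy jejunum and -0.768 (NQO1 with HO-1) in PGR ileum.

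Leaving out each pig in turn, PGR levels ran from 0.223 to 0.398 for jejunal Nrf2, 0.195 to 0.314 for jejunal HO-1, 0.555 to 0.743 for jejunal NQO1, 0.860 to 1.13 for ileal HO-1 and 0.679 to 0.767 for ileal NQO1. Genes that passed ran from 8 (without PGR pig 5) to 16 in the jejunum and from 8 (without PGR pig 2; 9 without PGR pig 1) to 13 in the ileum. The difference between tissues of the change ran from -1.96 to -0.747 for Nrf2, -2.19 to -1.05 for HO-1 and -0.352 to 0.387 for NQO1. The jejunal minus ileal difference of Nrf2 in healthy pigs ran from 2.81 to 3.39, where 5 pigs cannot pass. The r of both groups ran from -0.421 to 0.394 for ileal HO-1 with Nrf2, 0.326 to 0.527 for jejunal NQO1 with Nrf2 and 0.630 to 0.837 for jejunal NQO1 with HO-1 (the 0.630, without healthy pig 2, did not pass). HO-1 relative to Nrf2 in the ileum ran from -0.289 to 0.255. Of the 243 tested values without 1 pig, 205 kept direction and side of the threshold, and of the 24 counts of genes 21 stayed within a factor of 1.5. Under the other alternatives 76 of 137 tested values kept both. Of the rest, 30 turned in direction, 19 kept direction but no longer passed, and 12 newly passed. Among the 12 counts of genes under these alternatives, 8 moved by more than that factor.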
